A study of Mus musculus with 6 samples.

Results

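Kruppel-like factors are zinc finger transcription factors, and the genes described here are the 3 of 637 listed genes whose symbol is Klf followed by digits: Klf4, Klf6 and Klf11. The table that lists them holds group means of normalised reads from RNA sequencing of mouse hippocampus. The mice were C57BL/6, wild type and 56 days old. In the first group the middle cerebral artery was occluded, a focal stroke model, and in the second a sham operation was done. Both groups are titled 2 h, which may be the length of occlusion or a time after surgery, and each has 3 samples. Whether the 3 were different animals is not said in the labels, and the p-values then cover only the variation among these samples, possibly technical. The initials M and S in the headings of the columns were taken to stand for middle cerebral artery occlusion and sham, and all directions depend on this.

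Kruppel-like factors bind GC-rich and CACCC-type DNA through zinc fingers at the end of the protein, and switch genes on or off with co-regulators bound by the rest of it. Klf4 is known as a reprogramming factor of pluripotency, as a flow-responsive regulator in endothelial cells and, in mouse neurons, as a brake on axon growth. Klf6 is a broadly expressed family member that supports axon regrowth in zebrafish retinal neurons. Klf11, also known as a TGF-beta-inducible early gene, recruits the Sin3a co-repressor.

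The promoters of the 3 genes are shown because they share a sequence that the choice of genes did not use. They are RefSeq sequences (GRCm38.p6), 5′ to 3′ on the strand of the gene, from the 250 bases before the RefSeq start. Bases inside the GENCODE M21 gene are left off, so 153 bases are shown for Klf11 and 243 for Klf6. The windows are chr4:55532476-55532725 on the minus strand for Klf4, chr13:5861239-5861481 on the plus strand for Klf6 and chr12:24651121-24651273 on the plus strand for Klf11. Capitals mark the palindromic E-box CACGTG.
Klf4: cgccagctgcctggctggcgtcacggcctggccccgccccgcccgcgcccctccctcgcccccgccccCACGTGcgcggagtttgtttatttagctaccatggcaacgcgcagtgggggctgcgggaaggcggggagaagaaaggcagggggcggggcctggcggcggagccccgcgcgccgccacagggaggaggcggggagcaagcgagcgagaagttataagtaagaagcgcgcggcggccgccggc
Klf6: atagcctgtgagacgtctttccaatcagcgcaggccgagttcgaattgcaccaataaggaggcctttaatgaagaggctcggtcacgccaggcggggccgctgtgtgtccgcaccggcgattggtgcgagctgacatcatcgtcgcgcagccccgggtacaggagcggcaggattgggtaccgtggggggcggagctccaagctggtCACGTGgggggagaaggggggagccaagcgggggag
Klf11: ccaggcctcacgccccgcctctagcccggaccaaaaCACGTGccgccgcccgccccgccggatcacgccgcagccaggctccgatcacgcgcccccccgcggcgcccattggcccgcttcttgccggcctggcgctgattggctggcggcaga

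Each of the 3 promoters held 1 E-box in the 250 bases before the start, beginning 182 bases before it in Klf4, 43 in Klf6 and 214 in Klf11. Of 32841 RefSeq promoters searched over the same 250 bases, 6.02% held it, as did 9.32% of the 9177 whose GC content was at least 60%. Among 363 promoters of genes called higher in ischemia, which include these 3, the share was 11.6%. Of 10 other Klf genes with a promoter in the RefSeq table, 1 held it, Klf15. The E-box was picked out after 11 motifs had been searched on both strands, so its presence in all 3 is a description with no test.

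The 3 promoters were rich in GC, at 74.0% for Klf4, 64.8% for Klf6 and 76.8% for Klf11, against a median of 52.4% over all promoters. Family-type sites with the letters CCNCNCCC numbered 9 in Klf4, 2 in Klf6 and 5 in Klf11, and 45.9% of all promoters and 69.1% of those of genes called higher held at least 1. Matches of the GC box GGGCGG, found in 32.7% of promoters and 61.7% of those of genes called higher, numbered 4, 1 and 4 in the same order, and many of them overlap the family-type matches. All 5 family-type matches of Klf11, and its GC boxes at 49 and 20 bases before the start, lie in the bases that are not shown. In Klf4 a family-type match also overlaps the first base of the E-box. The CCAAT box was absent from the Klf4 window and matched 4 times in Klf6 and 2 times in Klf11, against 33.9% of all promoters and 38.3% of those of genes called higher with a match. Klf4 alone of the 3 held the half-site TGACG of the cAMP response element (1 match) and the EGR site GCGNGGGCG (2 matches). The half-site was in 17.8% of all promoters and 43.5% of those of genes called higher, and the EGR site in 4.70% of all and 12.1% of those called higher. The full cAMP response element TGACGTCA (in 1.55% of promoters), the AP-1 site TGANTCA (6.75%), the TATA box TATAAA (12.4%), the CArG box (1.47%) and the MEF2 site (0.509%) had 0 matches in these windows. The full element was in 7.44% of promoters of genes called higher. For the AP-1 site this share was 5.23%, for the TATA box 10.2%, for the CArG box 3.03% and for the MEF2 site 0.826%. Most promoters lack each of these, so their absence is not particular to the 3 genes.

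**Figure D1:**
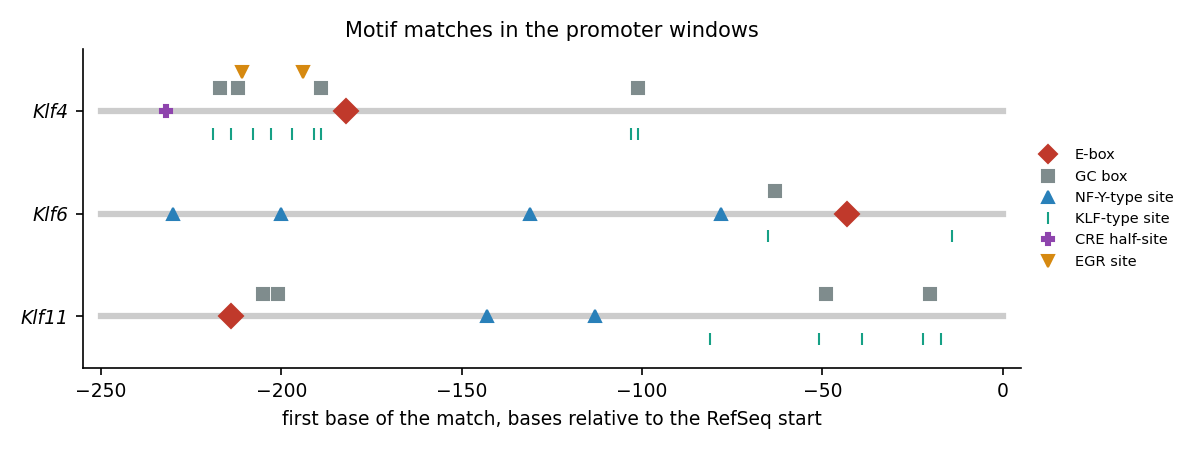
Matches of 6 motifs in the 250 bases before the RefSeq start of Klf4, Klf6 and Klf11, placed by the first base of each match (x axis, bases relative to the start); the NF-Y-type site is the CCAAT box and the KLF-type site the family-type match. Each gene has 1 E-box (diamond), at 182, 43 and 214 bases before the start from top to bottom, while the Klf4 window has no CCAAT box.

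All 3 genes were higher in ischemia in the authors' deposited table. Klf4 rose 3.02-fold, Klf6 2.47-fold and Klf11 1.68-fold, which are log2 fold changes of 1.59, 1.30 and 0.75. Each passed an adjusted p-value of 0.05, the threshold by which the listed genes were called. The list of 17 mouse Klf genes therefore had 3 higher, 0 lower and 14 not called members, beside 1.47% of 28319 tested genes called higher, 0.784% called lower and 2.25% called in either direction. The 14 genes not listed are Klf1, Klf2, Klf3, Klf5, Klf7, Klf8, Klf9, Klf10, Klf12, Klf13, Klf14, Klf15, Klf16 and Klf17. Their levels are not in the table, so neither a change nor its lack can be read for them.

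In the authors' deposited table Klf4 averaged 834 normalised reads in ischemia and 276 in sham (p = 7.69e-20, adjusted p = 9.07e-17). By p-value it was number 24 of the 637 listed genes. The sham mean could be separated into whole reads per library, with 287, 212 and 371 reads in libraries A, B and C. After scaling these are 328, 191 and 309 normalised reads, a mean of 276 ± 74.1 (SD, n = 3). Library B was the low library of the sham group. Counting error alone would give an SD of 16.4.

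The ischemia mean of Klf4 had 5 whole-read solutions, and the mean alone does not show which of them is the true split. In the authors' deposited table, Ier5 had a like fold (3.01) and higher means, but an adjusted p of 0.0292 against 9.07e-17 for Klf4. The authors' p-values therefore carry more than fold and level, and may bear on the splits. How they tested is not given, so the p-values were not used to choose a split. The most even solution gave 822, 822 and 857 normalised reads in libraries A, B and C. Another pair gave 868, 1154 and 481 or 777, 491 and 1234 normalised reads. The remaining pair gave 732, 159 and 1611 or 913, 1485 and 104 normalised reads. Since Klf4 is listed because its group means were called different, the order of its libraries is a description with no test. In 3 of the 5 solutions all ischemia libraries lay above the highest sham library. In the other two, 1 ischemia library lay below the lowest sham library, with a highest to lowest ratio of 10.1 or 14.3. Among 56 listed genes with an ischemia mean of 150 to 450 and 1 solution, this ratio had a median of 1.37 and a maximum of 5.54. Those 56 were themselves called different between the groups, and the Klf4 ischemia mean of 834 lies above their range. Their ratios therefore cannot tell which split of Klf4 is true.

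**Figure D2:**
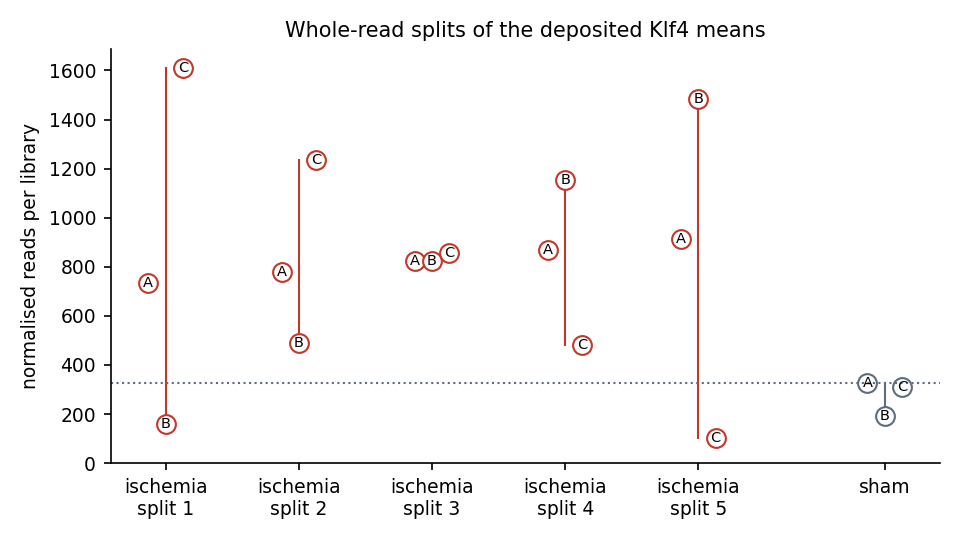
Klf4 normalised reads per library (y axis), for the 5 whole-read splits of the ischemia mean and the single split of the sham mean; letters mark libraries and the dotted line is the highest sham library, 328. Splits 2, 3 and 4 have every ischemia library above that line, and splits 1 and 5 have 1 ischemia library below all sham libraries.

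Klf6 was the most abundant of the 3 per length. In the authors' deposited table it averaged 3281 normalised reads in ischemia and 1331 in sham (p = 3.21e-19, adjusted p = 3.49e-16). It stood at number 26 by p-value, close to Klf4. At these levels the means no longer fix the reads per library, since 285 splits fitted the ischemia mean and 41 the sham mean. No spread between libraries is therefore given for Klf6, and its error rests on the authors' p-value.

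Klf11 was the scarcest and the least changed, and its libraries could be resolved in both groups. Whole reads in libraries A, B and C were 237, 284 and 355 in ischemia, against 148, 216 and 207 in sham. Scaled for library size, these are 283, 323 and 295 normalised reads in ischemia, against 169, 195 and 172 in sham. Every ischemia library was above every sham library, with a gap of 88.2 normalised reads between the nearest pair. The groups averaged 300.5 ± 20.7 in ischemia and 179 ± 14.1 in sham (SD, n = 3 each). Counting error alone would give SDs of 17.8 in ischemia and 13.1 in sham. Since Klf11 is listed because its group means were called different, the separation of its libraries is a description with no test.

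In the authors' deposited table Klf11 had p = 0.00065782 and adjusted p = 0.0340, and 88 of the 637 listed genes had a larger adjusted p-value. It was not called at an adjusted p-value of 0.01, under a Bonferroni correction, or with a log2 fold change of at least 1 required. Klf4 and Klf6 passed all of these. At an adjusted p of 0.01, 0.929% of the tested genes were called higher, with Bonferroni 0.477% and with the fold requirement 0.787%. Leaving out single libraries kept the log2 fold change of Klf11 between 0.69, without ischemia library B, and 0.81, without sham library B. For Klf4 it lay between 1.39, without sham library B, and 1.74, without sham library A. Leaving out an ischemia library of Klf4 gave 1.57 to 1.60 under the most even split and 1.20 to 1.87 under the pair of splits next to it. Under the most uneven pair it gave 0.69 to 2.12, with the lowest value without library C in the split of 732, 159 and 1611 normalised reads. These splits were not weighed against the authors' p-value for Klf4.

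**Figure D3:**
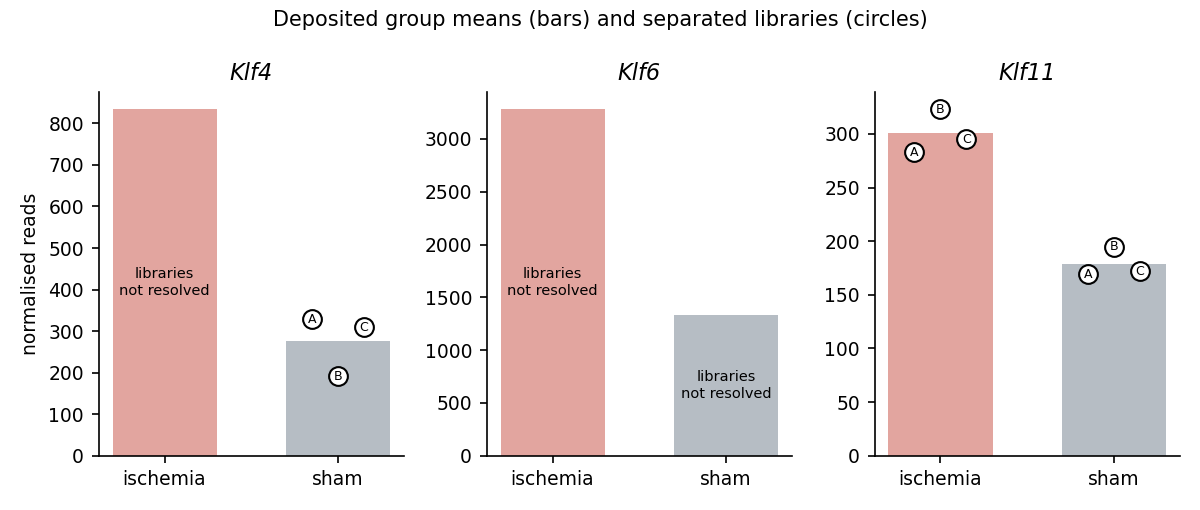
Normalised reads (y axis, from 0, a scale per panel) of Klf4, Klf6 and Klf11, with bars for the authors' group means in ischemia and sham and lettered circles for libraries whose reads could be separated. In Klf11 the 3 ischemia libraries (283 to 323) sit above the 3 sham libraries (169 to 195), while sham library B is low in Klf4 (191).

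Per kilobase of annotated exons, the order of the 3 genes was the same in both groups. Klf6 stood at 747 normalised reads per kilobase in ischemia and 303 in sham. Klf4 stood at 274 per kilobase in ischemia and 90.6 in sham, and Klf11 at 69.2 in ischemia and 41.2 in sham. On this scale the level of Klf6 was 2.73 times that of Klf4 in ischemia and 3.34 times in sham, and 10.8 times that of Klf11 in ischemia and 7.35 times in sham. Klf4 was at 3.95 times the level of Klf11 in ischemia and 2.20 times in sham. The spread over libraries is unknown for ratios with Klf6, and for Klf4 over Klf11 in ischemia. In sham the libraries of Klf4 and Klf11 were both separated. Before division by length, Klf4 had 328, 191 and 309 normalised reads in sham libraries A, B and C, and Klf11 169, 195 and 172. That ratio therefore varied between sham libraries and was lowest in B. The order of neighbours was not tested.

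Klf6 accounted for 74.3% of the normalised reads of the 3 genes in ischemia and 74.5% in sham. The share of Klf4 was 18.9% in ischemia and 15.5% in sham, and that of Klf11 was 6.81% in ischemia and 10.02% in sham. These shares are not scaled for gene length. Per kilobase of exons, Klf6 had 68.6% in ischemia and 69.7% in sham, and Klf4 25.1% and 20.8%. Klf11 had 6.35% and 9.48% on that scale. The 3 genes summed to 4415 normalised reads in ischemia and 1786 in sham. Of that gain, Klf6 made up 74.2%, Klf4 21.2% and Klf11 4.62%. The log2 fold change of Klf4 exceeded that of Klf6 by 0.29 and that of Klf11 by 0.85, and Klf6 exceeded Klf11 by 0.55. No test of these differences can be made from group means.

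Among the 415 genes called higher, Klf4 ranked 134 by fold, Klf6 173 and Klf11 278. The median of these 415 genes was 2.10-fold, below the folds of Klf4 and Klf6 and above that of Klf11. Folds of a pair of other early-response families are set beside these. The NR4A nuclear receptors had 3 of 3 members higher, by 8.01-fold (Nr4a1), 5.68-fold (Nr4a2) and 5.42-fold (Nr4a3). Of the EGR zinc finger factors and their Nab co-repressors, 4 of 6 were higher. Both counts stand beside 1.47% of all tested genes called higher. Egr2 was at 18.1-fold, Egr4 at 15.1-fold, Egr1 at 6.51-fold and Nab1 at 1.44-fold, which is below all 3 Kruppel-like factors. By the authors' test, Nr4a2 (adjusted p = 0.0227) and Nab1 (adjusted p = 0.0365) did not pass 0.01. All of these folds are from the authors' deposited table, and the difference between families was not tested.

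**Figure D4:**
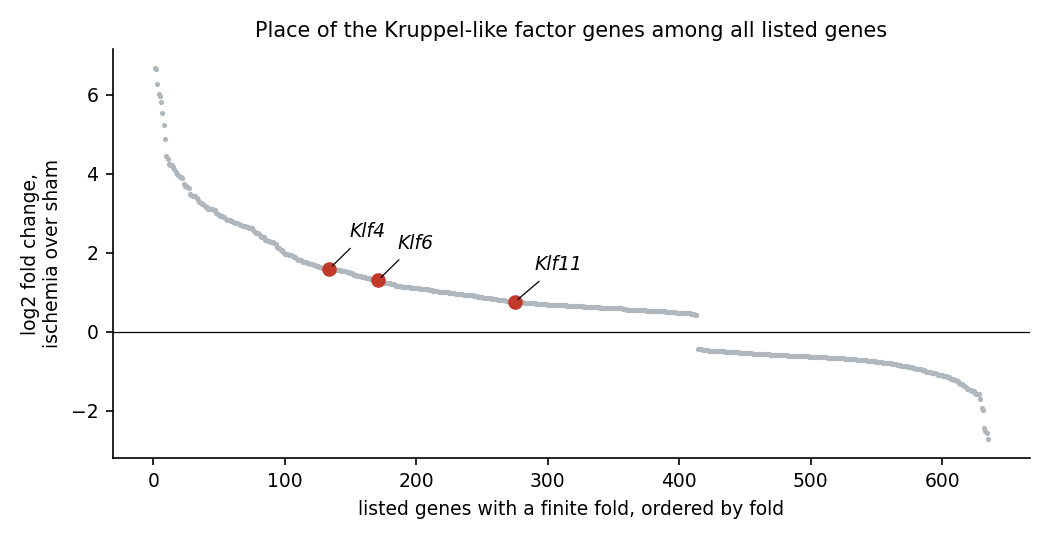
Log2 fold change of ischemia over sham (y axis) for the listed genes with a finite fold, ordered from highest to lowest (x axis, rank). Klf4 (1.59), Klf6 (1.30) and Klf11 (0.75) lie in the long middle stretch of genes called higher and away from the steep left end.

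The called genes closest to each Kruppel-like factor in log2 fold change, over the 2 group means, came from several classes. Closest to Klf4 were the ERK phosphatase Dusp6 (3.02-fold, adjusted p = 2.88e-11), the lysosomal galactosidase Gla (3.01-fold), the early response gene Ier5 (3.01-fold) and the phosphatase Dusp5 (2.99-fold). Closest to Klf6 were the cAMP-responsive repressor gene Crem (2.47-fold, adjusted p = 3.32e-11), the Ets-domain repressor Erf (2.45-fold), the elongation factor Ell2 (2.48-fold) and the ubiquitin ligase Siah2 (2.49-fold). Closest to Klf11 were the Mediator subunit Med7 (1.68-fold, adjusted p = 0.000695), the RNA methylation reader Ythdc1 (1.67-fold), the deubiquitinase Usp2 (1.68-fold) and Ncf1, a subunit of the phagocyte NADPH oxidase (1.67-fold). All folds are from the authors' deposited table. By the authors' test, Ier5 (adjusted p = 0.0292), Ythdc1 (adjusted p = 0.0127) and Ncf1 (adjusted p = 0.0274) did not pass 0.01. All 12 genes were higher in ischemia, which the choice by nearest fold had fixed.

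Of 25 factors known to act upstream of Kruppel-like factor genes or as their partners, 3 were higher, 1 lower and 21 not called, beside 1.47% of all tested genes called higher and 0.784% called lower. The called ones had a median log2 fold change of 0.81. Over all 637 called genes this median was 0.66. Srf, the serum response factor, averaged 6599 normalised reads in ischemia and 3396 in sham, which the authors' deposited table gives as a 1.94-fold rise (adjusted p = 2.13e-09). Stat3, a cytokine-activated factor, rose 1.58-fold (adjusted p = 0.000451), and Crem is given above. Ep300, a histone acetyltransferase and coactivator, was 1.48-fold lower there (adjusted p = 0.00480). The MEF2 genes, the ERK5 gene Mapk7 and Sin3a were not called.

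Of 21 genes reported elsewhere as targets of Klf4 or Klf6, 4 were higher, 0 lower and 17 not called, beside 1.47% of all tested genes called higher. The stress-induced factor Atf3 averaged 5027 normalised reads in ischemia and 80.3 in sham, a 62.6-fold rise by the authors' deposited table (adjusted p = 1.20e-33). The cell cycle inhibitor Cdkn1a rose 5.01-fold (adjusted p = 0.00294) and its relative Cdkn1b 1.72-fold (adjusted p = 0.000803), also by the authors' deposited table. The called ones had a median of 6.29-fold. Of the 9 related Sp factors, Sp9 was called, at 617 normalised reads in ischemia and 394 in sham (1.56-fold, adjusted p = 0.0274), and 8 were not. Of 8 reprogramming and stem cell factors, among them Pou5f1, Sox2 and Myc, 0 were called. The Sp and stem cell counts stand beside 2.25% of all tested genes called in either direction. Genes not called have no level in the table, so 0 of 8 is not read as a lack of change.

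**Figure D5:**
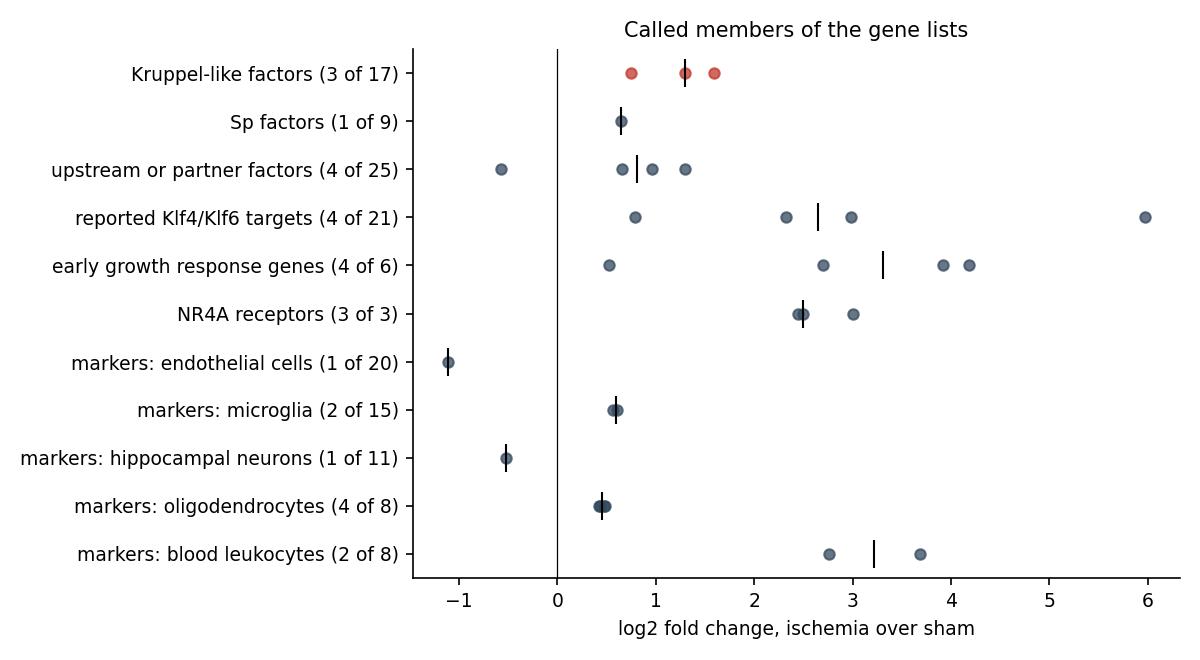
Log2 fold change of ischemia over sham (x axis) for the called members of each gene list (rows, with called and total members), where dots are genes and vertical ticks are medians of the called members. The 3 Kruppel-like factors (red) span 0.75 to 1.59, to the left of the NR4A receptors, the lowest of which is at 2.44.

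Since Klf4 is known in endothelial cells and in leukocytes, markers of cell types were set beside it, against the 1.47% of all tested genes called higher and 0.784% called lower. Of 20 endothelial markers, 0 were higher and 1 was lower, Sox18, which the authors' deposited table has at 149 normalised reads in ischemia and 322 in sham (adjusted p = 0.00347). Of 8 blood leukocyte markers 2 were higher, S100a9 (12.9-fold) and S100a8 (6.78-fold), both scarce. In the authors' deposited table the neutrophil gene S100a9 was at 59.6 normalised reads in ischemia and 4.64 in sham (adjusted p = 0.0340), and S100a8 at 71.1 in ischemia and 10.5 in sham (adjusted p = 0.0274). Of 15 microglia markers 2 were higher, Ly86 (1.53-fold, adjusted p = 0.0367) and Fcrls (1.47-fold, adjusted p = 0.0153), and of 10 astrocyte markers 0 were called. Of 8 oligodendrocyte markers 4 were higher, among them Cnp (1.34-fold, adjusted p = 0.0472) and Ermn (1.39-fold, adjusted p = 0.0401). Of 11 markers of hippocampal neurons Neurod2 was called, and the authors' deposited table has it 1.44-fold lower (adjusted p = 0.0182). Of the called markers, Sox18 alone passed an adjusted p-value of 0.01. Markers not called have no level in the table, so summed levels cannot be given and the tissue label cannot be checked. The part of these cell types in the Kruppel-like factor values was not tested, and in whole tissue more cells of a type and more RNA per cell cannot be told apart.

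The 3 genes are shorter than the median protein-coding gene. Of such genes, 20.3% are shorter than Klf4, 32.6% than Klf6 and 39.1% than Klf11. In GENCODE M21 (GRCm38), Klf4 spans chr4:55527143-55532466 on the minus strand, Klf6 chr13:5861482-5870394 on the plus strand and Klf11 chr12:24651274-24662789 on the plus strand. Their lengths are 5324, 8913 and 11516 bases, against a median of 17403 bases over 21951 protein-coding genes and of 14958 bases over 345 such genes called higher. The longest coding transcripts have 5, 4 and 4 exons, with coding lengths of 1449, 954 and 1506 bases in the same order. No exon of the 3 genes overlaps an exon of another gene in that annotation.

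The 3′ untranslated regions were searched for ATTTA, the core of AU-rich elements that mark short-lived messages. The Klf4 region of 982 bases held 1 match, the Klf6 region of 3111 bases held 7 and the Klf11 region of 2326 bases held 4. Per kilobase these are 1.02 for Klf4, 2.25 for Klf6 and 1.72 for Klf11. The median was 1.33 over 19879 protein-coding genes with a region of at least 100 bases, and 1.99 over 339 genes called higher. Klf6 was above both medians, Klf11 lay between them and Klf4 was below both.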

How the data were processed

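The authors deposited 1 table, whose signal columns hold normalised read counts averaged by group, per the file headers and values. The log2 fold change, the p-value and the adjusted p-value in it are the authors' own, per the file headers. Bowtie 0.12.2 and build mm8 are named in the submitters' processing notes, in roles not stated. The gene identifiers carry the prefix of the Ensembl BALB/cJ annotation in 612 of 637 rows, although C57BL/6 is the labelled strain. How reads were counted, scaled and tested, and whether strand was used, is not given in any source used here. Depth per library is unknown.

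From the authors' p-values and adjusted p-values, the number of genes tested was inferred as 28319, which matched 636 of the 637 rows within their printed digits. The planned limma test needs values per sample and was not run. Lattice reduction was used to recover each library's reads behind a group mean. Each group mean adds up whole counts of 3 libraries times a constant per library. Relations among the 12 lowest means of a group (9 found) fix these 3 constants, and 1 set above 0.2 was found per group, with size factors from 0.837 to 1.205 over the 6 libraries. Of the means up to 450 normalised reads, 135 of 172 in ischemia and 191 of 197 in sham had 1 solution, and 0 had none. Letters A to C order the libraries of a group by size factor; which replicate each is remains unknown. Both inferences were checked on simulated tables with known answers.

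Lengths came from GENCODE M21 (GRCm38), and promoters from RefSeq (GRCm38.p6). Python 3.11.15, numpy 2.4.6, scipy 1.17.1, sympy 1.14.0 and matplotlib 3.10.9 were used. The 3 genes and the 13 gene lists were chosen with earlier results of these data known. Genes named are those called Klf and a number, the called members of the lists and, for each Klf gene, the 4 called genes with a symbol nearest to it in log2 fold change. Some genes that this rule names are counted but not reported by name, and a few uncalled list members are named as such outside it.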

Additional observations from a re-analysis of the deposited data

How the results depend on the processing

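The calls are the authors' own, so stricter settings could only remove calls, and the authors' test could not be run again. A mean of at least 50 normalised reads left all 3 Kruppel-like factor genes called, and the 3 stricter thresholds left 2, as given with Klf11. With pseudocounts of 1 and 10 the lowest log2 fold changes of Klf4, Klf6 and Klf11 were 1.56, 1.30 and 0.72, against 1.59, 1.30 and 0.75 without. Leaving out single separated libraries gave 0.69 to 0.81 for Klf11 and, for Klf4, 1.39 to 1.74 over sham libraries and 0.69 to 2.12 over ischemia libraries under all 5 splits (0.69 and 2.08 without C or B in split 1, 0.88 and 2.12 without B or C in split 5), an alternative added after the data were seen, and could not be done for Klf6. The 5 splits of Klf4 were not weighed against the authors' p-value. Levels per kilobase of the longest coding transcript kept the order of the 3 genes. At an adjusted p of 0.01 the other gene lists had 14 called members, against 26 at 0.05. The stricter threshold alone makes this smaller. All 13 lists, with the 17 Klf genes, hold 160 genes, counted once each. Of all tested genes, 2.25% were called in either direction at 0.05. At 0.01, 0.929% were called higher, and lower calls were not counted. No paired analysis was possible because the table holds group means, and the separated libraries cannot be linked to the replicate numbers. The unknown depth limits the values per library, and they cover whole reads only where the solution is single.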
